A study of Mus musculus with 2 samples.

Results

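The T cell receptor constant genes and the genes of the CD3 subunits were examined in single cells sorted from fetal mouse lung. They comprised 10 of the 32285 gene rows of the matrix and were chosen by symbol: Tcrg-C1, Tcrg-C2 and Tcrg-C4 (gamma chain), Trdc (delta chain), Trac (alpha chain), Trbc1 and Trbc2 (beta chain), and Cd3d, Cd3e and Cd3g. The set was proposed with the level of these transcripts in group 2 innate lymphoid cells (ILC2s) of these same data in view, so their level by cell class is given as a description, with no test. All 10 rows had at least 1 unique molecular identifier (UMI, one captured RNA molecule) in these cells, and 9 passed the filter on low counts.

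The data were 1 single-cell 5′ RNA library of lung cells from wild-type fetuses on gestation day 18. Mothers, 9 weeks old, drank water with dexamethasone (DEX, a synthetic glucocorticoid) at 1.3 µg/ml or with PBS from gestation day 12. Fetuses were pooled by mother and marked with 4 hashtag antibodies. The DEX-1 pool held 8 fetuses, the DEX-2 pool 9, the PBS-1 pool 5 and the PBS-2 pool 8. The litter was therefore the replicate, with 2 litters per group, all 4 of which went through 1 gel bead run. The labels and methods give each pool its own mother, but a legend of the study speaks of a single mother per group. If the latter holds, the p-values below measure only the spread between pools of the same mother's fetuses. Cells were sorted as viable, CD45+, lineage-negative and ST2+. The lineage mix held antibodies to CD3e, CD4 and CD8A, so cells with surface CD3e were gated out before any RNA was read. With 2 litters against 2, an exact two-sided permutation test over litters cannot give a p below 0.333, and single values are given with their litters in place of such a test.

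The T cell receptor is a pair of chains, alpha with beta or gamma with delta, that reaches the cell surface only together with the CD3 subunits gamma, delta and epsilon and the zeta chain (Cd247). Each chain gene is assembled in developing T cells by joining V, in some loci D, and J segments, which needs the Rag1 and Rag2 recombinase, and the joined exon is then spliced to a constant gene. Constant genes can also be transcribed from a locus that was never rearranged. ILC2s are lymphocytes of barrier tissues that depend on the transcription factor GATA3, respond to IL-33 through ST2 (Il1rl1), and carry no antigen receptor on their surface.

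The constant genes of one locus are near copies of each other, and the first exons below show how far reads can tell them apart. Positions and sequences are of the mouse build GRCm38 (mm10), from GENCODE M21. Trbc1 (chr6:41538218-41539881) and Trbc2 (chr6:41546730-41548352) lie 6849 bases apart on the plus strand, and their first coding exons of 375 bases differ at 1 base (99.7% identical). The 120 bases around that base, at chr6:41538417-41538536 and chr6:41546929-41547048, are shown with the differing base in capitals.
Trbc1: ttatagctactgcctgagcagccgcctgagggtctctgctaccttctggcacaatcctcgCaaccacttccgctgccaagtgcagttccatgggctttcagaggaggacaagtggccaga
Trbc2: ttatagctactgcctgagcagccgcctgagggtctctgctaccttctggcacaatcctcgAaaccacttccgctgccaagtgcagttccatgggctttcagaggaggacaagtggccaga
A read that lies in this exon and misses that base cannot be given to either gene, so the split between Trbc1 and Trbc2 is uncertain. The gamma constants differ more. Over first exons of 330 bases, Tcrg-C1 and Tcrg-C2 differ at 9 bases (97.3% identical), Tcrg-C1 and Tcrg-C4 at 59 (82.1%) and Tcrg-C2 and Tcrg-C4 at 61 (81.5%). The first 120 bases are shown in the direction of transcription, from chr13:19214103-19214222 (plus), chr13:19307432-19307551 (minus) and chr13:19344558-19344677 (plus), with bases in capitals where the 3 are not all alike.
Tcrg-C1: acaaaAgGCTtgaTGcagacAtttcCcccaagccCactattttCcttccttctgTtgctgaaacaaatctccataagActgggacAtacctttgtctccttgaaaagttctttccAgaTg
Tcrg-C2: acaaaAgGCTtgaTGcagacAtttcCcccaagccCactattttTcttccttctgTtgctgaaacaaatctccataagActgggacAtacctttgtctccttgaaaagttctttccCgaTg
Tcrg-C4: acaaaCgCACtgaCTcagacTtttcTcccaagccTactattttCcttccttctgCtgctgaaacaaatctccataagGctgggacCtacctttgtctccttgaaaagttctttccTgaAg

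The 3 CD3 genes on the matrix lie together on chromosome 9. Cd3g (chr9:44969572-44980431, minus strand) and Cd3d (chr9:44981786-44987339, plus strand) start 1355 bases apart and are read away from each other, and Cd3e (chr9:44998740-45009627, minus strand) lies beyond Cd3d. Their promoters are shown because neighbours in this cluster were present at very different levels in the same cells. Each is 300 bases, from 250 before to 50 after the start site in RefSeq on GRCm38.p6: chr9:44980382-44980681 for Cd3g, chr9:44981536-44981835 for Cd3d and chr9:45009562-45009861 for Cd3e. RefSeq promoters were matched for 3 of the 10 genes. Capitals mark a match, on either strand, to 1 of 4 motifs. For GATA factors the letters searched were AGATAA. For RUNX factors they were TGTGGT. For TCF factors they were CTTTGA. An E-box was taken as CAGGTG. The related form CAGCTG was counted as an E-box too.
Cd3g: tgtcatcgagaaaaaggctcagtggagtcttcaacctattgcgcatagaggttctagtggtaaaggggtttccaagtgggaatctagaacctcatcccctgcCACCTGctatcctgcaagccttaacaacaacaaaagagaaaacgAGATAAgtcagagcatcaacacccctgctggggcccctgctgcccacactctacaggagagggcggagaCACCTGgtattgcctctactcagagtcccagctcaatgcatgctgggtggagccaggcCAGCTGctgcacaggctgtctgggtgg
Cd3d: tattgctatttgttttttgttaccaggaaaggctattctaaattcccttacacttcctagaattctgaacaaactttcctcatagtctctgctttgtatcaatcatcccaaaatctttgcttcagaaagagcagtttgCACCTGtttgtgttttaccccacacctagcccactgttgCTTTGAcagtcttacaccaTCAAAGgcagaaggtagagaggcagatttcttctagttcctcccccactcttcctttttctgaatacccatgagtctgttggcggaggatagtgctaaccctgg
Cd3e: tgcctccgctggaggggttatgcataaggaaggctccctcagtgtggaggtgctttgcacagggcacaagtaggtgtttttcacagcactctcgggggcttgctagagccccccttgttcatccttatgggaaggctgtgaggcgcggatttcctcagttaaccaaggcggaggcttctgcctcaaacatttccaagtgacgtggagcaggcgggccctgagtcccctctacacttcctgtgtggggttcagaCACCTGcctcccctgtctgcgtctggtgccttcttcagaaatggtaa
The Cd3g window held the GATA letters once, 104 bases before the start, and the E-box letters 3 times, at -148, -35 and 23. The Cd3d window held the TCF letters at -73 and -54 and the E-box letters at -112. The Cd3e window held the E-box letters at 3, and none of the 3 windows held the RUNX letters. Of all 32851 promoters of this length, 11.2% held the GATA letters, 16.8% the RUNX letters, 16.0% the TCF letters and 32.9% an E-box, so these matches describe the sequence and nothing more.

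Of 10648 barcodes, 10409 passed the limits on genes and mitochondrial RNA, and 7268 of these carried 1 hashtag (1737, 1888, 1753 and 1890 cells of DEX-1, DEX-2, PBS-1 and PBS-2). Clustered without the receptor genes, they held 2076 ILC2-like cells, of which 1837 had a Gata3 UMI (491, 398, 428 and 520 cells by litter, median 6796 to 8215 UMIs per cell). These 1837 cells are called ILC2-like cells from here on, and the 239 cells of the same clusters with no Gata3 UMI are called Gata3-negative and kept apart from the other classes. The other classes were basophil or mast-like (2780 cells), B cell-like (199), epithelial-like (446), endothelial-like (318) and mesenchymal-like (197), and 5 clusters that the markers did not name are called by their number. No T cell-like cluster was found, either with or without the receptor and T cell genes among the variable genes. Free RNA was present in the suspension: Sftpc, the surfactant gene of epithelial cells, had a UMI in 76.9% of B cell-like and 78.2% of ILC2-like cells.

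Receptor transcripts were present in nearly every ILC2-like cell, and they came mainly from 2 genes. Cd3g had a UMI in 85.7% of the 1837 cells (95% Wilson interval 84.1 to 87.3) and Tcrg-C1 in 69.2% (67.1 to 71.3). Trbc2 followed with 40.7%, Trbc1 with 30.8%, Tcrg-C4 with 28.6% and Cd3e with 18.8%, whereas Trac reached 7.73%, Trdc 4.90%, Cd3d 4.52% and Tcrg-C2 0.544%. Intervals cover counting error only.

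Because a deeper cell shows more genes, every cell was also thinned to 2000 UMIs, which left 1826 ILC2-like cells (11 were shallower). Cd3g was then seen in 52.7% and Tcrg-C1 in 47.6% of cells. Outside the ILC2-like clusters, the highest share of Cd3g was 4.22%, in endothelial-like cells, and that of Tcrg-C1 was 5.83%, in cluster 14 (leading genes Prtn3 and Gm15915). Trbc2 was seen in 13.9%, Tcrg-C4 in 10.0%, Trbc1 in 9.42% and Cd3e in 6.19% of thinned ILC2-like cells, and in no more than 2.54% of any class outside these clusters. In the B cell-like cells, which should lack all of these RNAs, the mean share over the 10 genes was 0.378% thinned against 14.4% in ILC2-like cells.

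The Gata3-negative cells of the same clusters carried these transcripts as well. Of 224 such cells after thinning, Cd3g was seen in 66.1% (interval 59.6 to 72.0), Tcrg-C1 in 43.8% (37.4 to 50.3), Trbc2 in 13.8%, Trbc1 in 11.6%, Tcrg-C4 in 10.3% and Trac in 3.57% (1.82 to 6.89). Their summed levels, as UMIs scaled to the same total (CPM), were 503 for Cd3g, 512 for Tcrg-C1, 85.5 for Tcrg-C4, 80.7 for Trbc2 and 68.8 for Trbc1. A cell without a Gata3 UMI may still hold Gata3 RNA, and these cells were shallower, with a median of 5176 UMIs.

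Among the rarest transcripts, Trac and Cd3d could not be set apart from their share in other classes. Trac was seen in 1.42% of thinned ILC2-like cells (interval 0.974 to 2.08) and in 1.10% of thinned basophil or mast-like cells. Cd3d was seen in 0.822%, below the 3.33% of cluster 12 (leading genes S100a9 and S100a8), a value that rests on 60 thinned cells. Trdc was as rare but differed more, with 1.37% (0.929 to 2.01) against at most 0.231% (0.0408 to 1.30), in cluster 3. In all, 9 of the 10 genes had a higher share in ILC2-like cells than in every class outside the ILC2-like clusters, the exception being Cd3d (Trac when hashtags were called with MULTIseqDemux), and 8 of 10 without thinning or by summed level, where Trac dropped out as well. The count includes Trac on the small difference above, and Tcrg-C2 on only 0.164% of thinned ILC2-like cells against 0% outside the clusters. The heat map of thinned shares by class shows the ILC2-like rows standing apart for Cd3g and Tcrg-C1.

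**Figure D1:**
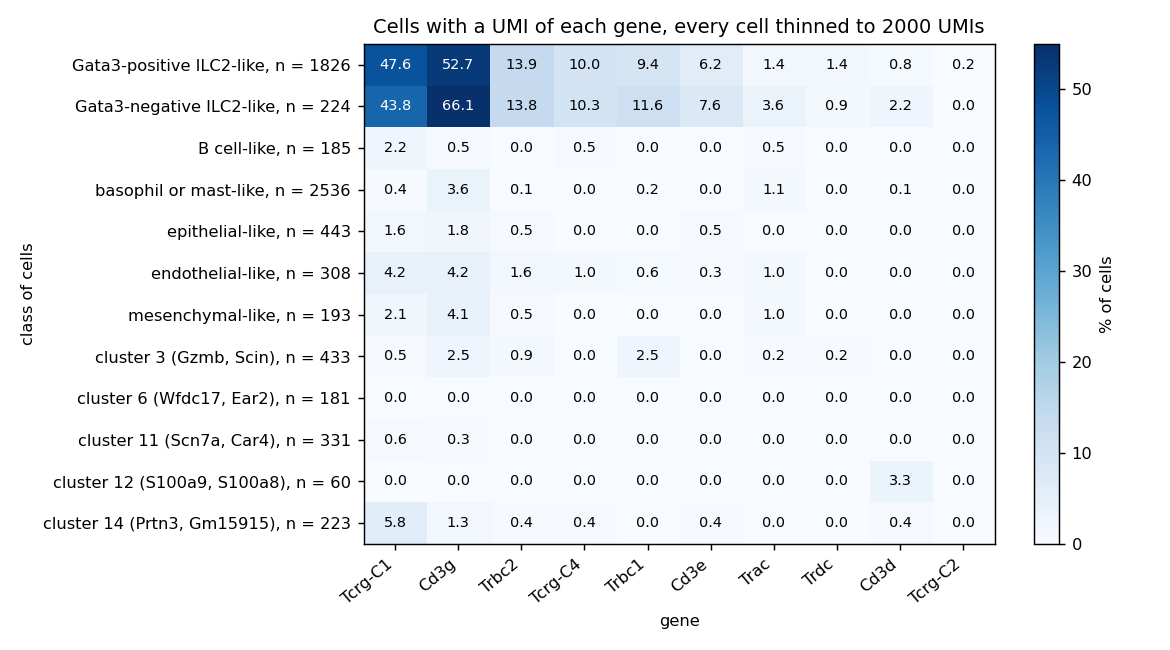
Share of cells (%, printed in each square and by colour) with a UMI of each of the 10 genes (columns) in each class of cells (rows), every cell thinned to 2000 UMIs. Cd3g (52.7%) and Tcrg-C1 (47.6%) fill the Gata3-positive ILC2-like row, while Trac, Trdc, Cd3d and Tcrg-C2 stay under 2% there.

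Summed over cells, the 10 genes gave 21048 UMIs in ILC2-like cells, of which Tcrg-C1 held 45.0% and Cd3g 33.6%. The CPM levels count 5′ ends of molecules and are not scaled to gene length. Tcrg-C1 stood at 439, 504, 668 and 706 CPM in DEX-1, DEX-2, PBS-1 and PBS-2. Cd3g stood at 438, 402, 446 and 450 CPM in the same order. Both were above every other receptor gene in every litter, and their ranges over litters overlapped.

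A middle group lay between 36 and 83 CPM in each litter. Trbc2 averaged 78.0 CPM over all cells (litters 70.8 to 83.2), Tcrg-C4 66.9 (59.1 to 77.7), Trbc1 57.1 (44.0 to 70.7) and Cd3e 49.8 (35.9 to 59.3). Neighbours in this order overlapped in their litter ranges. The gap from Cd3g to Trbc2, and that from Cd3e to Trac at 10.2 CPM (8.14 to 12.7), separated ranges that did not overlap. Cd3d at 8.38 CPM (4.50 to 16.7) and Trdc at 6.78 (4.63 to 8.98) overlapped with Trac and with each other. Tcrg-C2, at 0.801 CPM, had 13 UMIs in all and none in DEX-2. Tcrg-C3, the remaining gamma constant of the locus, had a UMI in 3 of the 1837 cells.

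Cd3g thus exceeded its divergent neighbour Cd3d in all 4 litters, with 7071 against 136 UMIs, although Cd3d, Cd3e and Cd3g together make the CD3 complex in T cells. Outside the ILC2-like clusters, the levels that came closest were those of Trac in mesenchymal-like cells (14.98 CPM, above the ILC2-like level) and of Cd3d in cluster 12 (14.3 CPM, 7 UMIs). One litter carried the first of these: DEX-1 had 23 of the 35 Trac UMIs. The highest Tcrg-C1 level outside these clusters, 47.3 CPM in cluster 14, also rested on 1 litter, with 161 of 268 UMIs in PBS-1.

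The mix of receptor transcripts differed between classes. ILC2-like cells had 1.34 Tcrg-C1 UMIs per Cd3g UMI, and endothelial-like and epithelial-like cells had 1.75 and 1.04. The highest ratio was 9.24, in cluster 14 (268 against 29 UMIs), where PBS-1 alone held most of the Tcrg-C1 UMIs. The ratio was 0.132 in basophil or mast-like cells (57 Tcrg-C1 against 433 Cd3g UMIs) and 0.087 in cluster 3 (leading genes Gzmb and Scin, 12 against 138 UMIs). Trac was also richer there, with 25.4 UMIs per 100 Cd3g UMIs in basophil or mast-like cells and 33.3 in cluster 3, against 2.33 in ILC2-like cells. Mesenchymal-like cells had 24.5, with most of their Trac UMIs from DEX-1, and cluster 14 had 17.2 (5 Trac UMIs). Cluster 3 further had 3.67 Trbc1 UMIs per Trbc2 UMI (99 against 27), and ILC2-like cells 0.732. These ratios come from sums over 1 library and carry no test.

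Most ILC2-like cells held several of the 10 transcripts at once, but few had UMIs of all parts of a receptor. The median cell had 3 of the 10 genes, 2.23% had none, 57.8% had at least 3, and the most was 9. Of B cell-like cells, 95.5% had none. A gamma constant was found in 75.7% of ILC2-like cells, Trbc1 or Trbc2 in 54.8%, and both a gamma and a beta constant in 44.3%. In T cells these chains belong to different receptors. The range over litters for this last share was 42.4 to 47.7%.

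Complete sets were seldom detected. Trac (7.73% of cells), Trdc (4.90%) and Cd3d (4.52%) were each seen in few cells, which caps the share with a full set. A cell without a UMI may still hold the RNA. All 3 CD3 subunits were seen in 24 cells (1.31%), and with Cd247 in 11. Trac with a beta constant was seen in 92 cells (5.01%, litters 3.74 to 6.11%), and Trdc with a gamma constant in 82 cells (4.46%, litters 2.76 to 5.61%). In contrast, 59.7% of cells had both Tcrg-C1 and Cd3g, close to the 59.4% that the product of the separate shares gives, and 4.68% had neither.

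Pairs of the 9 genes other than Tcrg-C2 were seen together more often than the product of their shares in 35 of 36 pairs (median ratio 1.22), in cells of unequal depth. After thinning to equal depth this held for 25 of 36 pairs (median ratio 1.23). Some thinned pairs rest on very few cells, such as Trac with Cd3d (1 cell) and Trac with Trdc (0 cells). Pairs of Tcrg-C1 with commoner genes lay near the product, with 6.90% against 6.62% for Trbc2 and 5.04% against 4.77% for Tcrg-C4. Tcrg-C4 with Trbc1 lay above it, with 1.48% against 0.944% (27 cells). Tcrg-C1 with Cd3g lay below the product after thinning: Tcrg-C1 was seen in 44.6% of cells with Cd3g and in 50.9% of cells without. Trbc1 was likewise seen in 7.48% of thinned cells with Cd3g and in 11.6% of those without. Cd3e went the other way, with 7.59% against 4.63%. Cells of 1 litter are not replicates, so these shares carry no test.

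V, D and J segment rows were read next, since a rearranged receptor carries a V segment joined to its constant gene. The matrix held 260 such rows. In ILC2-like cells, the beta locus gave 94 UMIs in V rows, 641 in J rows and 2191 in Trbc1 and Trbc2, that is 4.29 V UMIs per 100 constant UMIs. A single DEX-1 cell, described further on, held 68 of these V UMIs, and without it the ratio was 1.19. The gamma locus gave 180 in V rows, 283 in J rows and 10570 in constants, or 1.70 V UMIs per 100 (1.39 without that cell). No D row had a UMI in these cells. The alpha locus gave 90 V UMIs and 1 J UMI beside 165 Trac UMIs. All 14 beta J rows had a UMI, but only 4 of 35 beta V rows did.

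The leading J rows were Trbj2-1 (309 UMIs, 13.9% of cells), Trgj1 (206 UMIs, 9.80%), Trbj2-7 (123 UMIs) and Trgj4 (76 UMIs). The beta and gamma loci therefore gave J and constant UMIs with few V UMIs beside them.

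The delta locus was reversed, with 1711 V UMIs beside 110 Trdc UMIs. Trdv4, a V segment that fetal gamma delta T cells use, made up 1548 of these and had a UMI in 48.4% of ILC2-like cells. Its level was 89.9, 86.9, 91.5 and 109 CPM in DEX-1, DEX-2, PBS-1 and PBS-2. It was not restricted to ILC2-like cells: cluster 3 had it in 44.8% of cells (50.3 CPM) and basophil or mast-like cells in 11.5% (22.2 CPM), while no B cell-like cell had it. The 5 leading V rows were Trdv4, Trdv2-2 (159 UMIs), Tcrg-V5 (83), Trbv29 (68) and Tcrg-V1 (51). Trdv4 (chr14:54074905-54075515), Trdv2-2 and Tcrg-V5 each overlap an antisense gene of the annotation (Gm30275, Gm43647 and Gm31887), and Trdc overlaps Gm43434 and Trdv5 and Cd3e overlaps Gm48719, so reads of these rows may be shared where strand was not used in counting, which is not given in the sources used here.

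A beta V row stood out in other cells. Trbv13-2 had a UMI in 44.1% of cluster 3 (51.1, 44.7, 46.5 and 36.0% in DEX-1, DEX-2, PBS-1 and PBS-2) and in 25.1% of cluster 14, against 0.817% of ILC2-like cells. This row was singled out after its values were seen. In cluster 3 a beta constant was seen in 25.0% of the 196 cells with Trbv13-2 and in 10.1% of the others. The plot of segment sums by locus shows V rows above constants at the beta locus in basophil or mast-like cells (177 against 32 UMIs), cluster 3 (546 against 126) and cluster 14 (154 against 9). At the delta locus they lie above Trdc in all plotted classes but the B cell-like cells, which had neither.

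**Figure D2:**
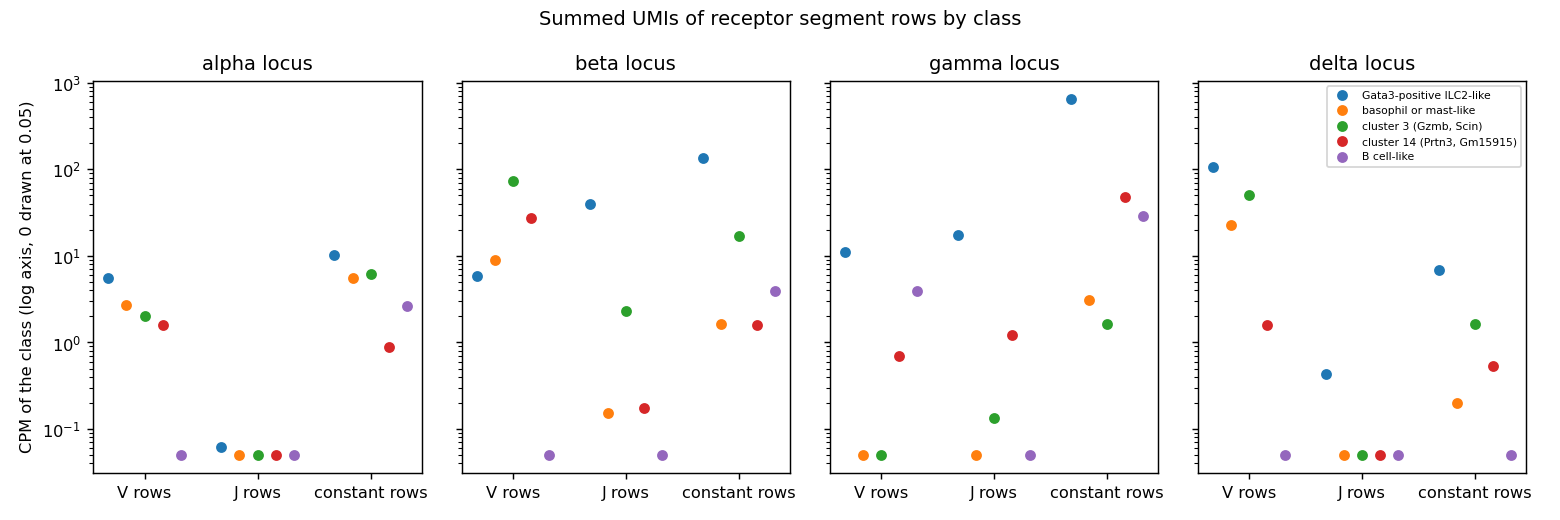
Level (CPM of the class, log axis, 0 drawn at 0.05) of the V, J and constant rows of each receptor locus, one point per class. In ILC2-like cells beta and gamma constants lie above V and J rows, while delta V rows (105 CPM) lie above Trdc (6.78 CPM).

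Of the genes that T cells express beside the receptor, coreceptors were almost absent: Cd4 had a UMI in 1 of 1837 cells, Cd8b1 in 1 and Cd8a in 9 (0.490%). The sort gated out cells with surface CD4 or CD8A, so the low shares of Cd4 and Cd8a were in part set by the gate and are no finding. Cd5 and Cd6, surface receptors of mature T cells, were seen in 7 and 6 cells. Clusters were named with T cell markers among the lists, so low shares of T cell genes may in part reflect the naming. Rag1, Rag2, Dntt (terminal transferase) and Ptcra (the pre-T cell receptor alpha chain) were not seen in any of the 1837 cells, which allows a share of up to 0.163% with a UMI. Dapl1 was not seen either.

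Other genes of the T cell identity list were common, so this list was not absent as a whole. Satb1, a chromatin organizer of thymocytes, was seen in 37.5% of cells, Cd27 in 28.7%, Themis in 21.4% and Lef1 in 12.3%. Of the 13 genes, 7 were under 1% and the mean was 8.71%. Of these, Satb1 was seen in 49.6% of basophil or mast-like cells and so was not particular to lymphocytes.

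Many genes of the signalling chain below the receptor were detected, at shares that ranged from near 0 to nearly every cell. Skap1 was seen in 96.5% of ILC2-like cells, the adaptor Lat in 78.8%, Lcp2 (SLP-76) in 70.0% and the kinase Zap70 in 62.7%, against 1.01% Zap70 in B cell-like cells. Lck, the kinase that starts receptor signalling in T cells, was lower at 26.3% and Cd247, the zeta chain, at 13.3%. Plcg1 (11.5%), Cd28 (7.19%), Trat1 (4.30%) and Cd2 (4.25%) were lower still, beside Cd5 and Cd6. The mean over the 30 genes of this list was 35.9%, and it was 33.2% in cluster 3 and 13.99% in B cell-like cells. These classes differed in depth, with medians of 7466, 15157 and 3528 UMIs per cell in the same order. After thinning to equal depth the mean was 15.1% in ILC2-like cells, 10.9% in basophil or mast-like cells, 9.83% in cluster 3 and 9.26% in B cell-like cells. The list was thus detected in these other classes too, at a lower mean share than in ILC2-like cells.

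Among genes of gamma delta T cells, Maf was seen in 36.9% and Zbtb16 (PLZF) in 32.8%. Il17a was seen in 39 cells (2.12%). Il23r, the IL-23 receptor of IL-17-producing gamma delta T cells, was seen in none of the 1837. ILC2 genes ran through the same cells, with Rora in 97.0%, Il7r in 96.7%, Icos in 93.1% and Il1rl1 in 73.4%, a mean of 64.0% over 16 genes. The gate itself required ST2, and the class required Gata3, so these 2 genes are no finding. Rora, Il7r and Icos were among the markers that named these clusters ILC2-like. Their high shares, and the mean of this list, were therefore in part set by the naming.

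**Figure D3:**
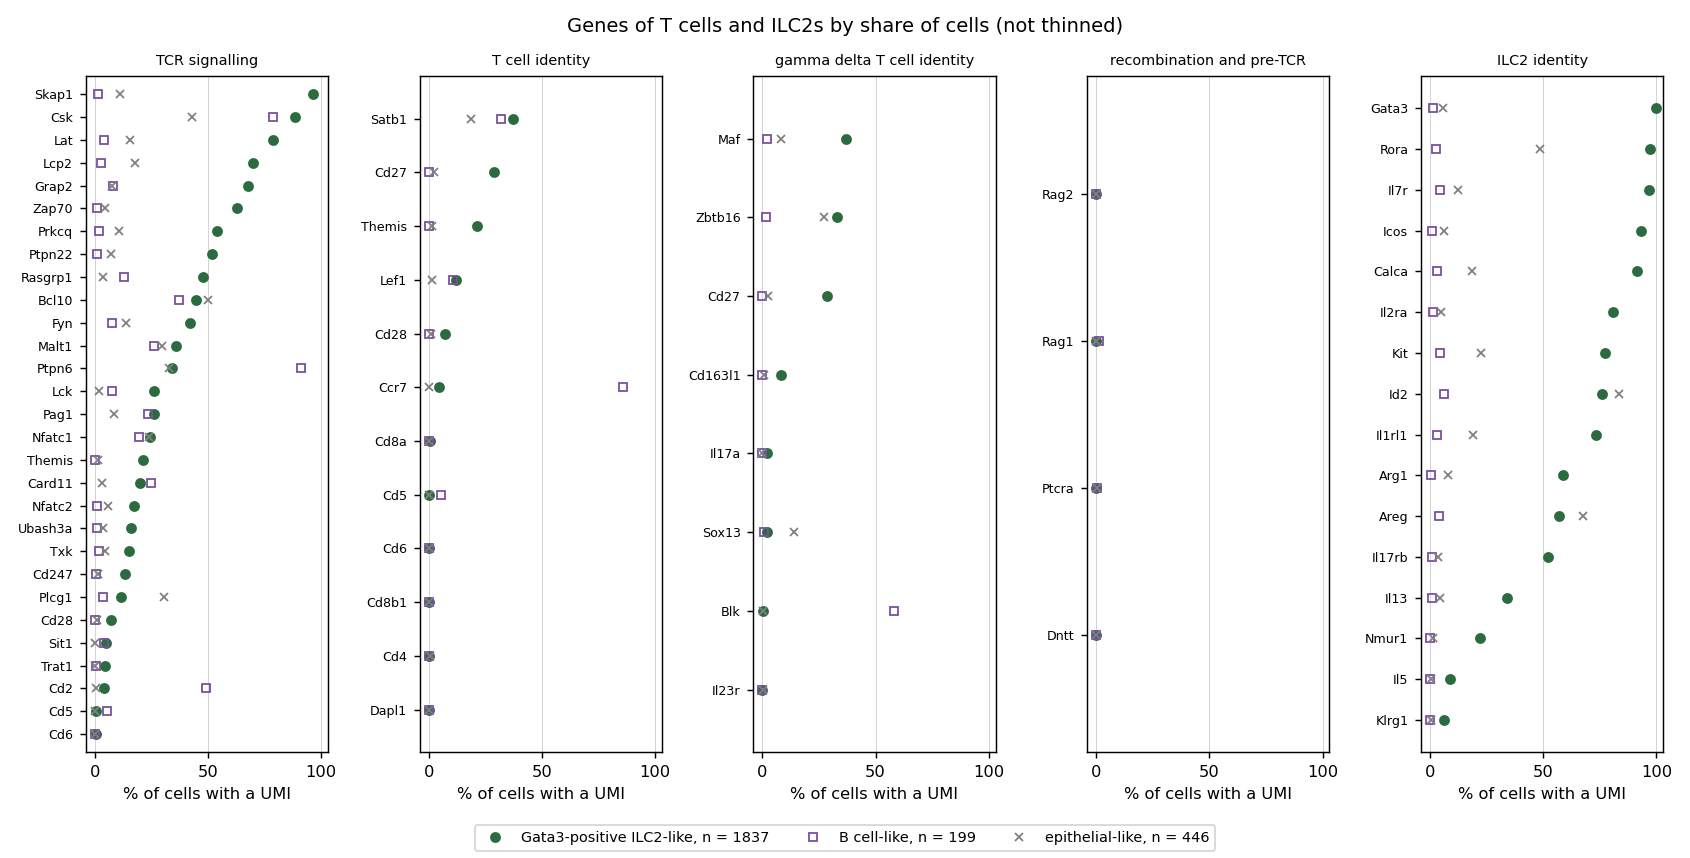
Share of cells with a UMI (%, not thinned) of genes of the T cell, gamma delta T cell, receptor signalling, recombination and ILC2 lists, in Gata3-positive ILC2-like (filled circles), B cell-like (open squares) and epithelial-like cells (crosses). Cd4, Cd8a, Cd8b1, Cd5, Cd6 and the 4 recombination genes lie at or near 0 in ILC2-like cells, while Skap1 and Lat lie above 78%.

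Cells with the parts of an alpha beta receptor were then listed. With Trac, a beta constant and a CD3 subunit there were 111 of 7268 cells, 83 of them ILC2-like. When an alpha or beta V UMI was required as well, 14 remained: 4 ILC2-like cells, 7 cells of cluster 3, 2 endothelial-like cells and 1 of cluster 14. In 12 of the 14 the evidence was 1 to 4 V UMIs, and in another it was 8. For a gamma delta receptor, 90 cells had Trdc, a gamma constant and a CD3 subunit (77 ILC2-like), and 12 of these also had gamma and delta V UMIs (8 ILC2-like).

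A single cell stood apart. This DEX-1 cell, with 33336 UMIs, lay in a cycling ILC2-like cluster and held 68 UMIs of Trbv29, the row's entire count among ILC2-like cells. It further held 3 UMIs of Trav16, 7 of Trac, 12 of Trbc2, none of Trbc1, and 32 of Tcrg-V5. Its CD3 counts were 42 of Cd3d, 29 of Cd3e and 29 of Cd3g, where the mean ILC2-like cell at its depth would have 0.280, 1.66 and 14.5. Tcrg-C1 went the other way, with 3 UMIs against 19.5.

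The same cell carried T cell genes and lacked ILC2 genes. It held 14 UMIs of Cd2, 14 of Cd7, 16 of Lck, 9 of Cd28 and 4 of Cd5. Il7r, Rora and Icos had none, against about 22.0, 22.5 and 21.7 at the class mean, and Gata3 had 1 against 15.1. Cd4, Cd8a and Cd8b1 had none. This 1 cell held 58.3% of the 72 Cd3d UMIs of DEX-1, and without it the DEX-1 level of Cd3d was 7.01 CPM, beside 4.50 to 6.17 CPM in the other litters.

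Genes whose level over the 16 clusters of at least 50 cells was most like that of Tcrg-C1 and of Cd3g were ranked among 6616 genes by Pearson's r of log2(CPM + 1). For Tcrg-C1 these were Tnfrsf25 (the TL1A receptor DR3, r = 0.93), the chemokine receptor Cxcr6 (0.93), the adaptor Sh2d2a (0.92), the chemokine receptor Ccr9 (0.92) and the proteasome subunit Psmb7 (0.91). For Cd3g they were Tnfrsf18 (GITR, r = 0.96), Neb (0.91), Abcb9 (0.91), the stress sensor Ern1 (0.90) and Ramp3 (0.90). The lists shared no gene, and Tcrg-C1 and Cd3g themselves had r = 0.68. The 16 clusters came from 1 library, and these values are a description.

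Whether maternal DEX changed these transcripts was asked in sums per litter with edgeR's quasi-likelihood test over 10501 genes. Of all genes tested, 164 (1.56%) passed an adjusted p of 0.05, 80 higher and 84 lower in DEX litters. Of the 9 receptor genes tested, 1 rose and 1 fell. The values below are TMM-scaled CPM, changes are log2 fold changes ± SE, and p-values are Benjamini-Hochberg adjusted over all genes.

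Tcrg-C1, the most abundant of the 10, was lower in DEX litters. It stood at 438 and 512 CPM in DEX-1 and DEX-2 and at 667 and 710 CPM in PBS-1 and PBS-2, so the groups did not overlap. The log2 change was -0.54 ± 0.08 (edgeR adjusted p = 0.00753), which is 0.688 of the PBS level. The share of cells with a Tcrg-C1 UMI followed the same order, 60.7 and 67.1% against 71.5 and 77.1%. Without DEX-1 the change was -0.42 (adjusted p = 0.0834), which no longer passed. Trgj1, the J row upstream of Tcrg-C1, stood at 8.54 and 8.83 against 14.8 and 17.7 CPM, a change of -0.92 ± 0.21 that just missed the threshold (adjusted p = 0.0537).

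Trbc1 was higher in DEX litters. It stood at 70.4 and 68.8 CPM against 44.0 and 47.3 CPM, a change of 0.61 ± 0.11 (adjusted p = 0.0140). The share of cells with a Trbc1 UMI was 34.8 and 36.9% against 25.0 and 27.1%. The call was less firm than that of Tcrg-C1: it was lost without DEX-1 (adjusted p = 0.0601), without DEX-2 (0.136), with DESeq2 (0.0778) and after thinning (0.206), while the change stayed between 0.60 and 0.69 in these fits. Trbc2, nearly identical in its first exon, stood at 82.9 and 83.5 against 77.3 and 71.2 CPM (0.17 ± 0.09, adjusted p = 0.539). Trbj2-1, a J segment that lies between the beta constants, rose with Trbc1 from 15.4 and 13.4 to 23.8 and 25.3 CPM (0.78 ± 0.17, adjusted p = 0.0459). This call was lost with DESeq2 (adjusted p = 0.399), after thinning (0.188), without DEX-1 (0.0846), without DEX-2 (0.297) and without PBS-2 (0.0831).

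The other receptor genes did not pass. Trac stood at 12.7 and 11.5 against 8.12 and 8.64 CPM (0.53 ± 0.22, adjusted p = 0.356) and Trdc at 6.46 and 4.71 against 8.96 and 6.99 CPM (-0.47 ± 0.29, adjusted p = 0.587). Cd3g, at 436 and 409 against 445 and 453 CPM, had a change of -0.09 ± 0.07 (adjusted p = 0.705). Cd3e (-0.07 ± 0.18, adjusted p = 0.940) and Tcrg-C4 (-0.013 ± 0.13, adjusted p = 0.985) lay near 0. Cd3d stood at 16.6 and 5.88 against 6.16 and 4.53 CPM (1.15 ± 0.41, adjusted p = 0.258), and without the 4 receptor-complete cells, among them the Trbv29 cell, the change was 0.29 (adjusted p = 0.803). Tcrg-C2 was too low to test.

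**Figure D4:**
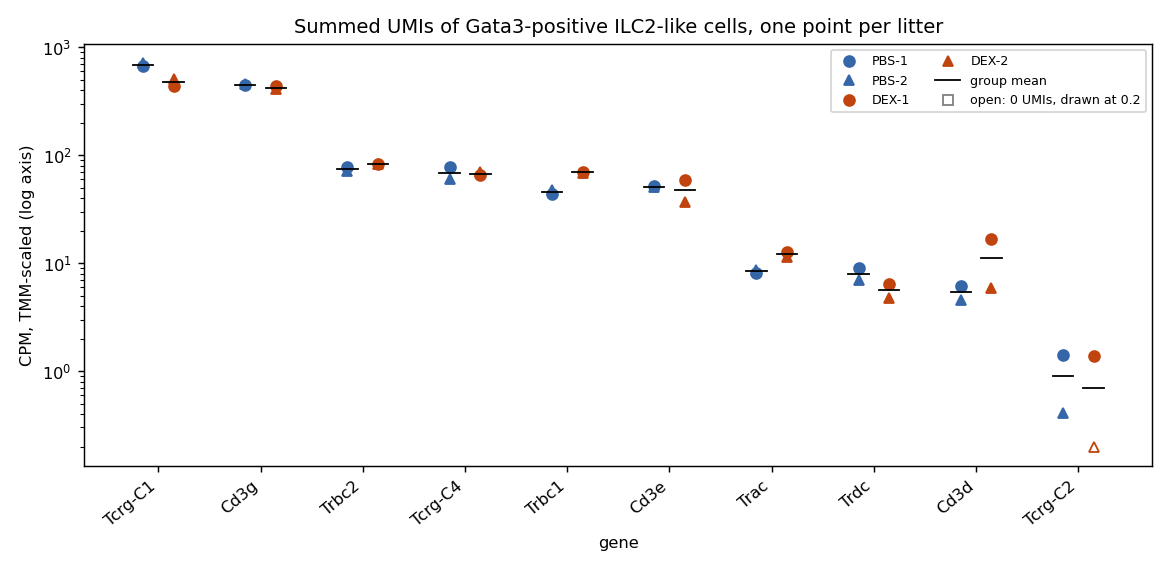
Level (TMM-scaled CPM, log axis) of the 10 receptor genes in the summed Gata3-positive ILC2-like cells of each litter, one point per litter with a line at each group mean of 2 litters. Tcrg-C1 is lower in both DEX litters (438 and 512 against 667 and 710 CPM) and Trbc1 is higher (70.4 and 68.8 against 44.0 and 47.3 CPM).

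Few genes of the lists around the receptor passed. As a background for the counts at an unadjusted p below, 1233 of all 10501 genes tested had an unadjusted edgeR p under 0.05. Of 28 receptor signalling genes tested of 30, only Lat passed: it fell from 285 and 267 to 186 and 192 CPM (-0.54 ± 0.08, adjusted p = 0.00360, and 0.0671 without DEX-2), and the list's median change was 0.0089 beside -0.004 for all genes. Of 6 T cell identity genes tested of 13, Satb1 rose from 44.0 and 57.6 to 80.8 and 92.7 CPM (0.75 ± 0.13, adjusted p = 0.0133, and 0.223 without DEX-2). The median change of these 6 was 0.62, and 4 of them had an unadjusted p under 0.05. Of 7 gamma delta T cell genes tested of 9, Zbtb16 rose (0.49 ± 0.11, adjusted p = 0.0451), a call lost with DESeq2 (0.332), after thinning (0.585), without DEX-1 (0.0890) and without DEX-2 (0.348). Of 16 ILC2 genes, Il2ra fell (-0.42 ± 0.08, adjusted p = 0.0220), a call lost after thinning (0.359), without DEX-1 (0.148) and without DEX-2 (0.210). The median change of the ILC2 list was 0.084, and 8 of its genes had an unadjusted p under 0.05. None of 14 transcription factors shared by T cells and ILC2s and none of 24 cell cycle genes passed with edgeR (4 and 3 at an unadjusted p under 0.05), limma-voom or DESeq2, and the 4 recombination genes were too low to test.

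Markers of other cells differed between the litters and are given beside these results. All 10 T cell markers had a UMI in ILC2-like cells, and their summed level was 85.0 and 84.6 CPM in DEX litters against 56.9 and 73.9 CPM in PBS litters. Of 8 NK or ILC1 markers 6 had a UMI (Ncr1 and Klra8 had none), with sums of 61.2 and 58.5 against 36.2 and 27.4 CPM. The 7 mesenchymal markers summed to 33.4 and 37.4 against 19.6 and 16.8 CPM. Endothelial markers (45.7 and 47.5 against 38.2 and 40.1) and macrophage or monocyte markers (10.7 and 10.1 against 9.82 and 7.98) were higher too. Other types were lower in both DEX litters. Epithelial markers summed to 282 and 275 against 341 and 321 CPM. Dendritic cell markers summed to 209 and 201 against 232 and 244 CPM, and B cell markers to 43.6 and 50.7 against 58.6 and 56.9 CPM. Erythroid markers summed to 265 CPM in DEX-1, but to only 9.85 to 13.7 CPM elsewhere. Their part in the result was not tested.

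ILC2-like cells were also split by Cd7, Dtx1 or Trat1, genes of early lymphocytes and T cell signalling. There were 247 such cells, 16.1 and 16.3% of the ILC2-like cells in DEX-1 and DEX-2 and 12.9 and 9.23% in PBS-1 and PBS-2. They had 746 CPM of Tcrg-C1 against 557 CPM in the other 1590 cells, 127 against 69.9 CPM of Trbc2 and 99.0 against 50.2 CPM of Trbc1, but 368 against 447 CPM of Cd3g. In the 1590 cells alone, the DEX change was -0.61 for Tcrg-C1 (adjusted p = 0.00203) and 0.57 for Trbc1 (adjusted p = 0.0380). In the 247 cells neither passed (-0.33, adjusted p = 0.341, and 0.51, adjusted p = 0.711). This split and its fits were added after the data were seen.

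Receptor genes also differed with the cell cycle. ILC2-like cells with at least 4 UMIs of 24 cell cycle genes after thinning to 2000 UMIs were called cycling (447 cells) and those with 0 or 1 not cycling (1251), and 128 in between were left out. Cycling cells were deeper, with litter medians of 13679 to 14711 UMIs against 5999 to 6738. The test, with litter as a block, called 3890 of 9741 genes (39.9%), a background against which 7 called of 9 receptor genes must be read.

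Tcrg-C1 fell most. It stood at 266, 296, 513 and 495 CPM in cycling cells of DEX-1, DEX-2, PBS-1 and PBS-2 and at 551, 615, 757 and 922 CPM in cells not cycling, and was lower in 4 of 4 litters (-0.88 ± 0.06, edgeR adjusted p = 9.65e-14). Cd3g fell less, from 472, 453, 494 and 459 to 383, 367, 384 and 434 CPM (-0.26 ± 0.06, adjusted p = 0.000582). Trdv4 fell as well (-0.66 ± 0.09, adjusted p = 2.57e-07).

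The beta constants and 3 rarer genes rose. Trbc1 went from 76.6, 58.8, 33.4 and 34.5 CPM to 66.6, 80.5, 55.9 and 62.7 CPM, higher in 3 of 4 litters (0.40 ± 0.13, adjusted p = 0.0122). Trbc2 rose by 0.29 ± 0.10 (adjusted p = 0.0239) and Cd3e by 0.33 ± 0.12 (adjusted p = 0.0216). Trdc rose from 3.15, 2.14, 6.87 and 5.11 to 9.68, 8.68, 10.9 and 9.80 CPM (1.17 ± 0.33, adjusted p = 0.00406). Tcrg-C4 (0.24 ± 0.11, adjusted p = 0.0838) and Trac (0.18 ± 0.27, adjusted p = 0.637) did not pass. With DESeq2, Tcrg-C1 and Cd3g were the 2 receptor genes that passed, beside 1957 of all 9741 genes. The calls of all 5 genes that rose were lost. Their DESeq2 adjusted p was 0.0969 for Trdc, 0.146 for Trbc1, 0.169 for Cd3d, 0.293 for Cd3e and 0.302 for Trbc2.

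Cd3d rose by 1.37 ± 0.34 (adjusted p = 0.00121), but the Trbv29 cell was among the cycling cells of DEX-1, where Cd3d stood at 31.9 CPM against 4.73 to 9.32 CPM in the others. Without the receptor-complete cells the change was 0.52 (adjusted p = 0.277), and that of Cd3e was 0.22 (adjusted p = 0.172), so both calls were lost. The calls for Trbc1 and Trbc2 were lost without PBS-1 (adjusted p = 0.0698 and 0.185) or without PBS-2 (0.210 and 0.157).

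The same split in other lists gave 24 of 24 cell cycle genes higher, which the split itself used, 3 higher and 11 lower of 28 receptor signalling genes, and 1 higher and 11 lower of 16 ILC2 genes (Gata3 -0.36). Satb1, Cd27 and Lef1 were lower among 6 T cell identity genes tested. Of 6 gamma delta T cell genes tested, 1 was higher and 3 lower. Of 14 shared transcription factors, 1 was higher and 6 were lower. With DESeq2 the genes that passed were 6 of the 28 signalling genes, 9 of the 16 ILC2 genes and 3 of the 14 transcription factors. Of the T cell identity genes 3 of 6 passed, and of the gamma delta T cell genes 2 of 6. These counts must be read beside the 1957 of all 9741 genes that DESeq2 called.

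**Figure D5:**
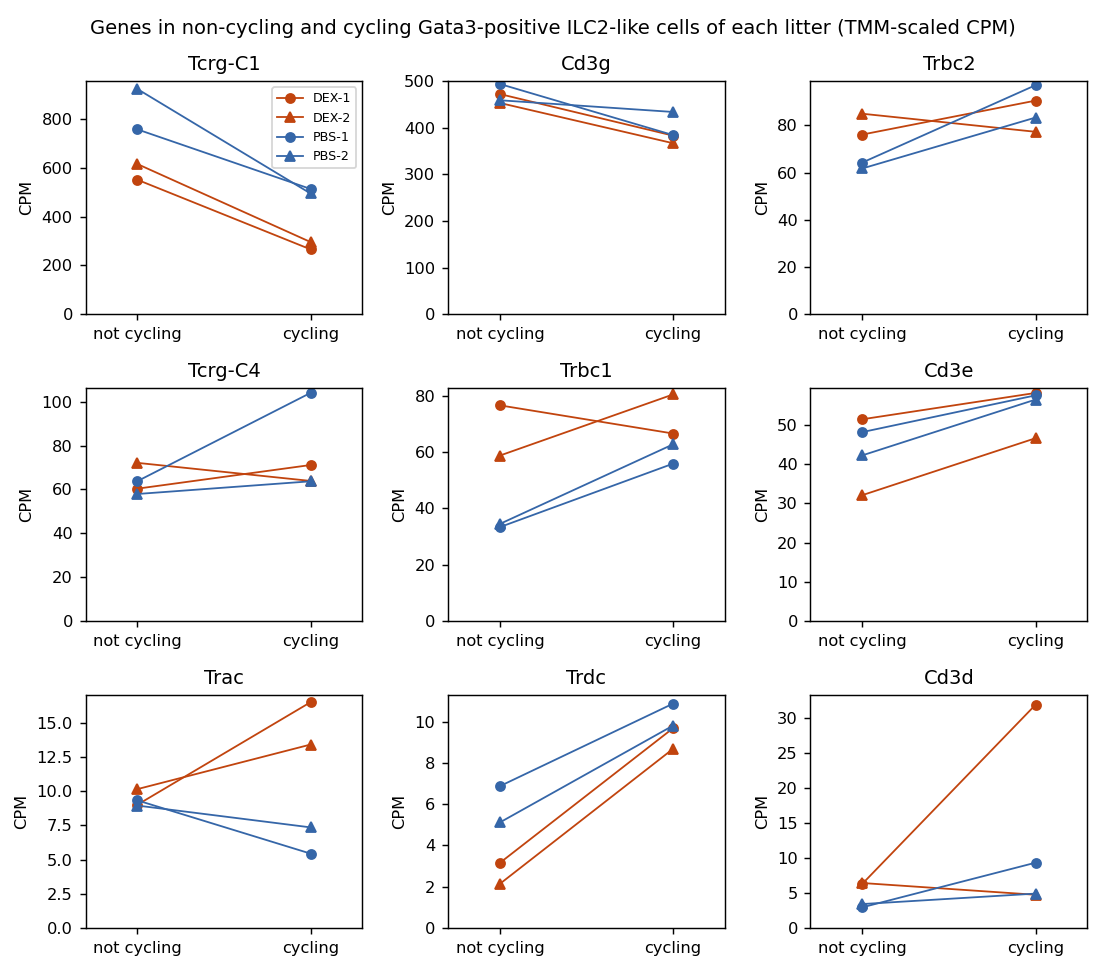
Level (TMM-scaled CPM) of receptor genes in non-cycling and cycling Gata3-positive ILC2-like cells, one line per litter, with each vertical axis starting at 0. Every litter falls for Tcrg-C1 (551 to 922 CPM down to 266 to 513 CPM), and the DEX-1 line of Cd3d rises to 31.9 CPM.

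Whether the DEX change differed with cycling was tested with an interaction term over the 8 sums. It called 9 of 9741 genes (0.0924%) and none of the 9 receptor genes. At an unadjusted edgeR p under 0.05 there were 4 of the 9 receptor genes, beside 469 of all 9741 genes. The largest receptor terms were those of Trac (1.14 ± 0.52, adjusted p = 1), Trdc (0.95 ± 0.68, adjusted p = 1) and Trbc1 (-0.72 ± 0.24, adjusted p = 0.715). In cycling cells alone Tcrg-C1 was lower in DEX litters by -0.85 ± 0.08 (adjusted p = 7.00e-05) and Trbc1 changed by 0.28 ± 0.15 (adjusted p = 0.645). In cells not cycling the changes were -0.52 ± 0.11 (adjusted p = 0.0307) and 1.00 ± 0.17 (adjusted p = 0.00923). The DEX change of Trbc1 therefore passed in one state and not in the other, and the difference between the states did not pass.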

How the data were processed

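The study measured RNA in single cells of sorted fetal lung, with 4 hashtag antibodies for the litters. The authors deposited raw UMI counts per gene and barcode in 1 matrix, made with Cell Ranger (version 7 by the submitters' processing notes) on mm10. Whether intronic reads or strand were used in counting is not given in the sources used here. There were 10648 barcodes, none repeated, with 119146805 gene UMIs and 8754715 hashtag UMIs.

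Hashtags were called over all barcodes with HTODemux (Seurat 5.3.0), after which barcodes with at least 200 genes and at most 5% mitochondrial UMIs were kept. Of 10409 kept barcodes, 736 were hashtag doublets and 2405 negative. Doublets within a litter carry 1 hashtag and were not removed. Singlets were clustered (Leiden, resolution 0.5, scanpy 1.11.5) without the receptor rows, T cell genes, Gata3, Il1rl1 and sex-linked genes. Clusters were named from marker lists, so names may differ from those of the study. For shares, each cell was thinned to 2000 UMIs. UMI counts were summed per litter and tested with edgeR 4.0.16 (quasi-likelihood, TMM, filterByExpr, two-sided, R 4.3.3) over all genes, with Benjamini-Hochberg adjustment. The study tested cells, whereas here the litter was the replicate. The test was checked on simulated data. Alternatives were limma 3.58.1, DESeq2 1.42.0, other filters, scalings, hashtag calls, clusterings, depths and subsets of cells, and each litter left out. ILC2-like sums held 3452914 to 4887988 UMIs per litter. Intervals are 95% Wilson intervals, and a count of 0 is given the limit of 3 counts.

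The 10 genes, the gene lists and the tests were chosen with earlier results of these data known. The text names all 10 receptor genes, the genes of each list that passed and the 5 leading V rows. It also names the 5 genes outside the 10 that were most like Tcrg-C1 and Cd3g. Where a gene falls outside this rule, the text says so or gives it as an example of its list, chosen after its values were seen. A few list members are counted but not reported here by name. Same-numbered litters share only a number: the deviations of DEX-1 and PBS-1 from their group means correlated with r = 0.0652.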

Additional observations from a re-analysis of the deposited data

Results flagged for a closer look

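In the cycling Gata3-positive ILC2-like cells, 1 litter stood far from the other 3 for 2 of the receptor genes. Cd3d was at 31.9 CPM in DEX-1, where the gap to the next litter was 0.831 of the range over the 4 litters. The cycling cells of DEX-1 included the cell with 42 Cd3d and 68 Trbv29 UMIs. Cd3e was at 46.5 CPM in DEX-2, below 56.4 to 58.1 CPM in the other litters, a gap of 0.853 of the range. Chance sets apart about 1 in 20 groups of 4 in this way.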

How the results depend on the processing

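The number of genes called between DEX and PBS litters, 164, became 471 with no filter on low genes, 98 with DESeq2, 264 in all ILC2-like cells, 84 after thinning, 62 in cycling cells, 2 in cells with Cd7, Dtx1 or Trat1, and 56 to 389 with 1 litter left out (148 without DEX-1, 56 without DEX-2, 314 without PBS-1, 389 without PBS-2). The share of calls that were higher in DEX moved from 48.8% to 62.8% without DEX-1, 62.5% without DEX-2 and 59.5% after thinning. With a replicate block on litter number the count was 307, both receptor calls remained (Tcrg-C1 and Trbc1), and litter numbers are only names. The count for cycling, 3890, was 1957 with DESeq2. Tcrg-C1 passed in 20 of 22 alternatives and Trbc1 in 16 of 22. In the cycling comparison Tcrg-C1 and Cd3g passed in 11 of 11. Without the litter as a block, Trbc1, Trbc2, Cd3d and Cd3e no longer passed there.

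Log2 changes near 0 turned sign. For Tcrg-C4 under DEX (-0.013) the value was 0.0035 with limma-voom, 0.022 in all ILC2-like cells, 0.12 in cells not cycling, 0.082 after thinning, 0.040 with MULTIseqDemux, 0.18 in cells without Cd7, Dtx1 or Trat1, and -0.20 to 0.18 with 1 litter left out. Trbc2 was -0.076 in cycling cells and Cd3d -0.043 in cells without Cd7, Dtx1 or Trat1. Cd3e was 0.011 in all ILC2-like cells, 0.72 in cells with Cd7, Dtx1 or Trat1, and -0.47 to 0.22 with 1 litter left out. Cd3g was 0.030 after thinning and 0.30 in cells with Cd7, Dtx1 or Trat1. Trac between cycling states was -0.15 to 0.38 with 1 litter left out and -0.060 without receptor-complete cells. None of these passed. Cd3d under DEX passed with no filter (adjusted p = 0.00133) and when DEX-2 or PBS-1 was left out (0.0476 or 0.0122), and in the cycling comparison it was 0.58 (adjusted p = 0.358) without DEX-1. The cause of these changes was not tested. The depth limits Tcrg-C2, Trac, Trdc and Cd3d, which were seen in under 8% of cells.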
